A study of Mus musculus with 2 samples.

Results

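Mir126a and Mir126b are 2 microRNA (miRNA) genes that lie on opposite strands of the same stretch of mouse chromosome 2, inside the gene Egfl7. They were picked by symbol from the 2202 miRNA genes of the tables, and each symbol matched 1 gene. MiRNAs were sequenced from adrenal glands of male B6CASTF1/J mice, an F1 hybrid of C57BL/6J and CAST/EiJ, at 4 days of age. The only group held 2 libraries of total RNA, biological replicates 1 and 2, from males numbered 3 and 4, with small RNAs below 30 nucleotides. No treatment, mutation or second group was given, so the comparisons below are between strands, between genes and between the libraries. Both libraries carried 1 donor label, and they were taken as 2 separate animals from the numbers of the replicates and of the males.

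A miRNA gene is transcribed as part of a longer RNA, from which a hairpin is cut and then trimmed to short mature strands, named 5p and 3p after the arm they come from. A mature strand guides Argonaute proteins to messenger RNAs that pair with its seed, the bases near its 5′ end. MiR-126 is best known from endothelial cells, where it is made together with its host Egfl7, a secreted protein of the vessel wall, and where it supports vascular integrity and signalling by vascular endothelial growth factor, in part by repressing Spred1 and Pik3r2. It is also found in blood stem cells and in platelets. The adrenal gland is densely supplied with sinusoidal capillaries, through which steroid hormones and catecholamines leave the gland.

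The sequences of the hairpins are shown first because their overlap determines how reads are counted. Both were taken from RefSeq (build GRCm38.p6), are written 5′ to 3′, and have the mature arms listed there in capitals.
Mir126a: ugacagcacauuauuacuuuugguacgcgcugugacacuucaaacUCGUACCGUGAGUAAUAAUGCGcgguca
Mir126b: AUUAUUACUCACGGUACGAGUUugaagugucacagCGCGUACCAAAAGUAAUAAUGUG

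The hairpin of Mir126a (ENSMUSG00000065540.1) spans 73 bases of the plus strand at chr2:26591357-26591429. Mir126b (ENSMUSG00000105799.1) spans 58 bases of the minus strand at chr2:26591363-26591420, wholly within the span of its partner. These are positions on mm10, and the spans in GENCODE M21 and RefSeq were the same. The Mir126b hairpin was the exact reverse complement of the part of Mir126a that it faces. Only 6 bases at the 5′ end and 9 bases at the 3′ end of the Mir126a hairpin have no Mir126b on the other strand. Folded alone with RNAfold, the Mir126a hairpin formed 27 base pairs with a minimum free energy of -31.2 kcal/mol, and the shorter Mir126b hairpin formed 21 pairs with -19.3 kcal/mol.

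Of the 19 annotated Egfl7 transcripts, 8 have the locus in an intron, 7 of them protein-coding, and 1 transcript with a retained intron has it in an exon. The other 10 transcripts do not reach it. The coding transcripts with 10 exons have it in intron 7. A single transcript of Gm20532, which overlaps Egfl7 on the same strand, also has it in an intron. Both hosts are on the plus strand, the strand of Mir126a.

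The mature strands listed in RefSeq are ones that each gene would give if processed, with the seed, bases 2 to 8, in capitals. The sequences used hold no miR-126a-5p, so that arm is neither printed nor covered by the searches below.
miR-126a-3p: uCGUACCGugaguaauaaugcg
miR-126b-5p: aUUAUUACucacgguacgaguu
miR-126b-3p: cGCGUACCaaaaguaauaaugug

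These 3 seeds differ from each other, and no other of the 1679 mature miRNAs in the RefSeq table had any of them. The seeds of miR-126a-3p and miR-126b-3p nevertheless share most of their bases as a run at shifted positions. Only seeds equal at the same positions were searched for. MiR-126b-5p lies opposite miR-126a-3p, with 19 bases in perfect complement, while miR-126b-3p lies opposite the other arm of Mir126a. The sequence of miR-126a-3p occurred in the hairpin of Mir126a only among 1005 hairpins searched on either strand. Among 141767 transcripts of the annotation it matched 2, the Mir126a hairpin itself and the Egfl7 transcript with the retained intron. The tables counted reads per hairpin, so the counts of Mir126a cover miR-126a-3p and miR-126a-5p together.

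**Figure D1:**
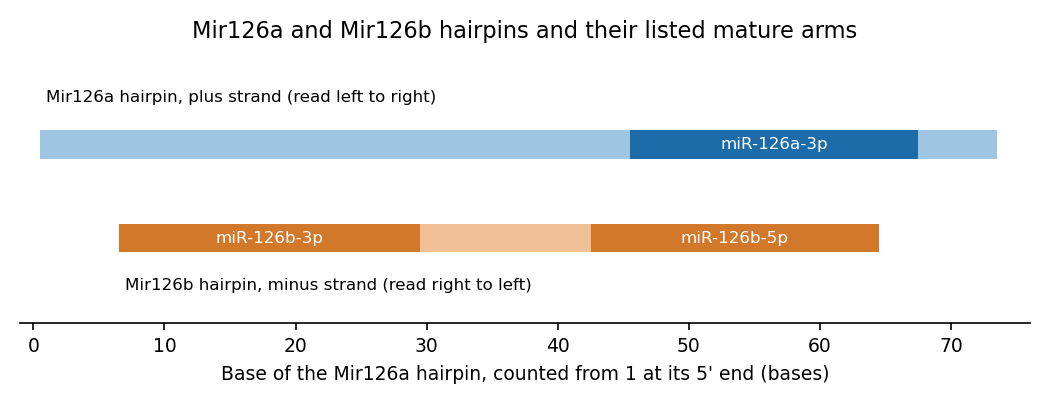
Map of the hairpins, in bases counted from 1 at the 5′ end of Mir126a, with the mature arms listed in RefSeq in the darker shade. Mir126b lies within the Mir126a span on the other strand, and miR-126b-5p covers 19 of the bases of miR-126a-3p.

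Mir126a was counted in very large numbers and Mir126b hardly at all. Each table gave 3 counts per gene, 1 for reads of either strand and 1 for each strand. The strand column with more reads over all genes is called sense here, and the other opposite. On the sense strand Mir126a had 258384 counts in replicate 1 and 140666 in replicate 2. Mir126b had 15 counts in replicate 1 and 12 in replicate 2. Both genes therefore passed the minimum of 10 counts in both libraries, as did 340 of the 2202 genes.

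The opposite-strand column held the mirror image of these values. There Mir126b had 258377 counts in replicate 1 and 140664 in replicate 2, while Mir126a had 15 and 12. The counts of Mir126b on its sense strand and of Mir126a on its opposite strand were equal in both libraries. Sense reads of Mir126a exceeded the opposite-strand count of Mir126b by 7 reads in replicate 1 and by 2 in replicate 2. The same 7 and 2 reads were all that the either-strand column gave to Mir126a, and it gave Mir126b 0 in both libraries. These few reads were thus the ones assigned to Mir126a without being shared with the Mir126b span.

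**Figure D2:**
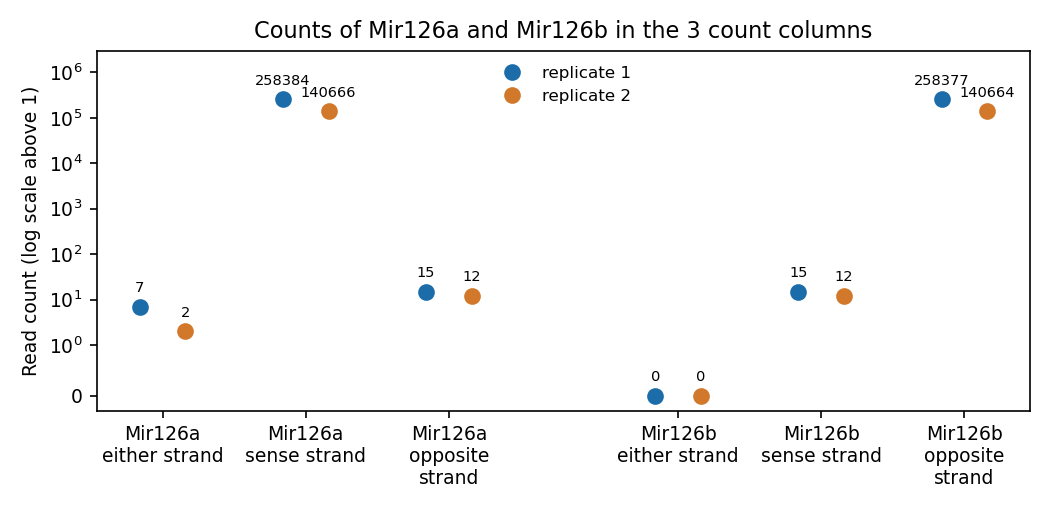
Read counts of both genes in the 3 count columns, on a log scale above 1, with 1 point per library and the count printed above it. Sense counts of Mir126a and opposite-strand counts of Mir126b lie between 140664 and 258384, and all other points lie at 15 or below.

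The either-strand column therefore lost 99.997% of Mir126a reads in replicate 1 and 99.999% in replicate 2. Reads of the locus that were missing there numbered 258392 in replicate 1 and 140676 in replicate 2. Set against the summary row for reads that could not be given to 1 gene, they amounted to 54.1% of that row in replicate 1 (95% exact Clopper-Pearson interval 53.9 to 54.2%) and to 65.1% in replicate 2 (64.9 to 65.3%). Among the 64 miRNA genes with a miRNA gene on the other strand, Mir126a held 54.1% and 65.1% of the sense counts in the same order. In the opposite-strand column Mir126b was the first-ranked gene, with 54.0% of all counts in replicate 1 and 65.1% in replicate 2. The choice of column decides whether this locus reads as Mir126a, as Mir126b or as nearly absent.

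Scaled to 1000000 sense-strand miRNA counts (CPM), Mir126a stood at 65222 CPM in replicate 1 and at 83391 CPM in replicate 2. As a share of miRNA counts this was 6.52% (exact interval 6.50 to 6.55%) and 8.34% (8.30 to 8.38%). The intervals cover counting error only, since reads are not independent molecules. Mir126a had rank 3 in replicate 1, behind Mirlet7g and Mir10a, and rank 1 in replicate 2. Ranks and shares hold only among reads aligned to 1 locus. Reads aligned to more than 1 locus, 27.0% of all reads in replicate 1 and 25.7% in replicate 2, were given to no gene. In replicate 1 the leading genes were almost level, at 65632 CPM for Mirlet7g, 65562 CPM for Mir10a and 65222 CPM for Mir126a. In replicate 2 Mirlet7g followed at 71158 CPM and Mir10a at 52943 CPM. By mean level the order was Mir126a with 74306 ± 12848 CPM, Mirlet7g with 68395 ± 3907 CPM, Mirlet7i with 62895 ± 977 CPM and Mir10a with 59253 ± 8923 CPM (SD, n = 2). Neighbours in this order lay within the SD of Mir126a or of Mir10a, apart from the step from Mirlet7g to Mirlet7i. A read covers a short RNA and not the length of its gene, so no scaling by gene length was made.

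Mir126b had 3.79 CPM in replicate 1 (exact interval 2.12 to 6.24) and 7.11 CPM in replicate 2 (3.68 to 12.4). The mean was 5.45 ± 2.35 CPM (SD, n = 2), rank 348 of the 2202 genes. A count of 0 would allow up to 3 counts, or 0.757 CPM in replicate 1 and 1.78 CPM in replicate 2, and Mir126b was above this limit in both. Its neighbours by mean level were Gm24270, Mir6944 and Mir1968 above it and Mir5114, Mir3057 and Mir194-1 below it. All 6 lay between 5.22 and 5.80 CPM, which is within the SD of Mir126b.

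For each Mir126b read there were 17226 Mir126a reads in replicate 1 (exact interval 10444 to 30777) and 11722 in replicate 2 (6710 to 22687). Expressed per 100 Mir126a counts, Mir126b had 0.00581 in replicate 1 and 0.00853 in replicate 2, with a mean of 0.00717 ± 0.00193 (SD, n = 2). The ratio was 1.47 times as high in replicate 2 (exact interval 0.628 to 3.36). This difference was not detectable at the depth of 15 and 12 reads (two-sided Fisher's exact test, p = 0.320), and the test compared 2 libraries, not conditions. Since both genes were counted in the same library, the ratio does not depend on scaling.

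Reads on the wrong strand were rare where no antisense miRNA gene is annotated. Genes of this kind with at least 10000 sense counts in both libraries numbered 31. Together they had 19 opposite-strand reads against 2846850 sense reads in replicate 1, or 0.000667% (exact interval 0.000402 to 0.00104%). In replicate 2 they had 3 against 1178091, or 0.000255% (0.0000525 to 0.000744%). Mir126b as a share of Mir126a was 8.70 times this pooled share in replicate 1 and 33.5 times in replicate 2. These multiples depended on the minimum: over the 101 genes with at least 1000 sense counts they were 2.39 and 2.47, and there 5 genes in replicate 1 and 3 in replicate 2 were at or above the share of the Mir126 locus. Most opposite-strand reads of that wider set, 60 and 44, were those of Mir203.

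By count, none of the 31 genes reached the opposite-strand reads of the Mir126 locus, since the highest had 6 reads in replicate 1 and 1 in replicate 2. By share, 2 of them were at or above it in replicate 1 and 1 in replicate 2, each from 6 reads or fewer. Mirlet7g and Mirlet7i, with sense counts similar to those of Mir126a, had 0 opposite-strand reads in both libraries, and Mir10a had 2 and 0. The highest mean shares were those of Mir130a (0.00688%, from 2 reads and 1 read), Mirlet7b (0.00577%, from 6 reads and 1 read) and Mir541 (0.00415%, from 0 reads and 1 read). Whether the reads on the Mir126b strand were mature miR-126b strands cannot be read from counts per hairpin.

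**Figure D3:**
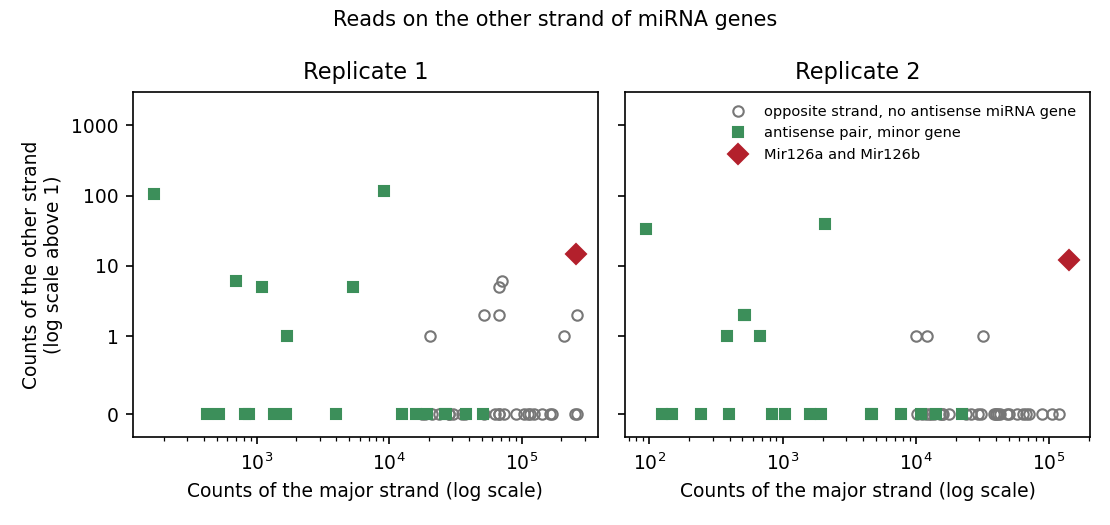
Reads on the other strand (vertical axis, log scale above 1) against reads on the major strand (horizontal axis, log scale) in replicates 1 and 2. The Mir126 pair is the red diamond, the other 20 antisense pairs are green squares, and open circles are the 31 abundant genes with no antisense miRNA gene, all of which lie at 6 reads or fewer.

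The annotation held 32 pairs of miRNA genes that overlap on opposite strands, and 21 of them had at least 100 counts in both libraries. The Mir126 pair had the highest counts of these. Its minor-strand share of 0.00717% ± 0.00193 (SD, n = 2) was above 0 and by mean over the libraries lower than that of 7 other pairs, while the other 13 pairs had no minor-strand read in either library. Of the 7 pairs, 5 rested on 6 minor-strand reads or fewer per library, and 5 were above the Mir126 pair in both libraries. The pairs next in counts were Mir378a with Gm25301, Mir30e with Mir30f, Mirlet7e with Gm25927, Mir451a with Mir451b and Mir191 with Gm24083, all of them among the 13. Pair by pair, their depth was too low to set them apart from the Mir126 pair. For Mir378a, 0 of 51421 reads in replicate 1 allowed a share of up to 0.00583%, which is not below the 0.00581% of the Mir126 pair, and in none of the 13 pairs was the limit below it in either library. Pooled over the 13 pairs, the limit was 0.00150% in replicate 1 and 0.00436% in replicate 2. Both lay below the shares of the Mir126 pair, 0.00581% and 0.00853% in the same order. The 13 pairs were grouped by having no minor-strand read, so their pooled limit is low by that choice. It leaves out the 7 pairs with higher mean shares and cannot place the Mir126 pair among antisense pairs.

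At least 10 reads of the minor gene in both libraries were found in 3 pairs, which were chosen after their values were seen. Mir3544, opposite Mir337 in the imprinted Dlk1-Dio3 region, had 116 and 39 reads, or 1.54% ± 0.417 of its pair (SD, n = 2). Mir3074-1, opposite Mir24-1, had 104 and 34 reads, or 32.2% ± 8.30. Mir24-1 itself had only 169 and 95 reads, and any of its reads aligned to more than 1 locus are missing from this share. The remaining pair was that of Mir126b, with the lowest share of them.

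Between the libraries, Mir126a was 1.28-fold higher in replicate 2 as a share of miRNA counts (exact interval 1.27 to 1.29, counting error only), a log2 ratio of 0.35 on CPM + 0.5. The direction depended on the denominator, because 33.7% of all reads fell in miRNA genes in replicate 1 and 25.7% in replicate 2. As a share of all reads, Mir126a held 2.20% in replicate 1 (exact interval 2.19 to 2.20%) and 2.15% in replicate 2 (2.13 to 2.16%), a log2 ratio of -0.03. The spread over the libraries was accordingly 7.43% ± 1.28 of miRNA counts and 2.17% ± 0.0353 of all reads (SD, n = 2). With TMM or DESeq2 size factors the ratio was 1.19.

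**Figure D4:**
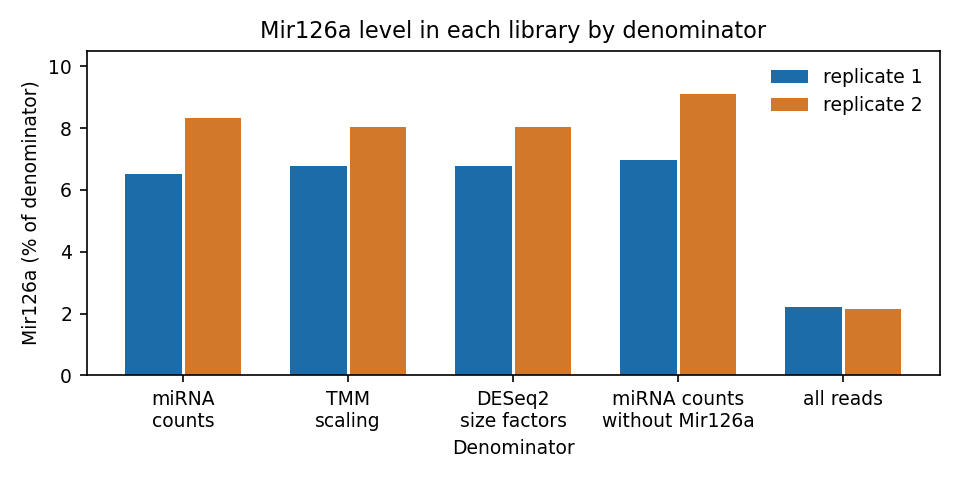
Mir126a as a percentage of 5 denominators, with 1 bar per library. Replicate 2 is higher with each denominator made from miRNA counts, and the bars are nearly equal, at 2.20 and 2.15%, for all reads.

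Ratios to other abundant genes of the same library are free of scaling. Of the 9 genes that follow Mir126a by mean level, 7 had a higher ratio of Mir126a to the gene in replicate 2. Mir126a had 1.57 times the reads of Mir143, a miRNA of smooth muscle and mural cells, in replicate 1 and 2.20 times in replicate 2. Against Mir375, a miRNA of endocrine cells, it had 2.10 times the reads in replicate 1 and 1.97 times in replicate 2. Against Mir21a the ratio was 3.83 in replicate 1 and 2.11 in replicate 2.

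A gene was called different between the libraries at an adjusted p under 0.05 (two-sided exact binomial test, Benjamini-Hochberg adjustment over the 404 genes that reached 10 counts in 1 library or more) and a log2 ratio beyond 1 in either direction. Neither of the 2 members was called, against 18.3% of the genes tested. For Mir126a the adjusted p was too small for the computer to hold, and its log2 ratio of 0.35 was under the threshold of size. Of the tested genes, 62.1% had an adjusted p under 0.05 at any size, and their log2 ratios had a median size of 0.50, above that of Mir126a. The level of Mir126b in replicate 2 was 1.88 times that in replicate 1 (0.803 to 4.30, exact), a log2 ratio of 0.83 with an adjusted p of 0.196 by the exact test. Its counts were too low to show a difference of this size.

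**Figure D5:**
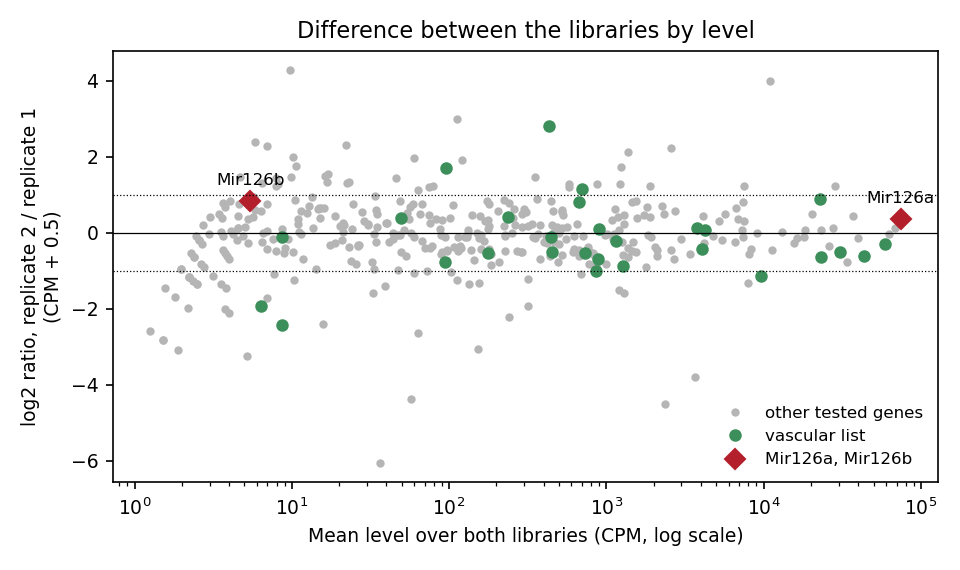
Log2 ratio of replicate 2 over replicate 1 on CPM + 0.5 (vertical axis) against mean level in CPM (horizontal axis, log scale) for the 404 tested genes, with the vascular list in green, Mir126a and Mir126b as red diamonds and dotted lines at ratios of 1 and -1. Both members lie between the dotted lines, at 0.35 and 0.83.

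Among the 22 other genes with a mean of at least 10000 CPM, 10 had a larger log2 ratio in size than Mir126a. The 3 genes with the log2 ratio nearest to it, over 2 libraries only, were Mir375 (0.45), Mirlet7d (0.50) and Mir411 (0.14). With 2 libraries this likeness is 1 number per gene and describes no shared pattern beyond it.

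Other miRNAs with known roles in endothelial cells or vessel growth were taken as a list of 30 genes that includes both members. Many of them are made in other cells too. All 30 matched a gene and were tested, and 28 were detected in both libraries. The list held 29.9% of miRNA counts in replicate 1 and 27.0% in replicate 2, and without Mir126a and Mir126b it held 23.4% and 18.7%. After Mir126a its highest members were Mir10a, Mir322, Mir23b, Mir23a and Mir10b, which lay at 59253 ± 8923, 43649 ± 13053, 30777 ± 7495, 23251 ± 7164 and 22713 ± 9630 CPM by mean (SD, n = 2).

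Of the 30, 3 were called higher and 4 lower in replicate 2, beside 39 higher and 35 lower (18.3% in all) of the 404 genes tested, so the share called was near that of all genes. The median log2 ratio of the list was -0.27, beside -0.05 over all tested genes. The higher ones were Mir31 (log2 ratio 2.80), Mir222 (1.70), which acts in endothelial responses to growth factors, and Mir132 (1.15), known from growth factor signalling in vessels. Mir221, made from the same cluster as Mir222, had a log2 ratio of 0.42 and was not called. The lower ones were Mir19a (-2.42), Mir19b-1 (-1.92), Mir130a (-1.15) and Mir296 (-1.02). Mir19a went from 59 to 4 reads and Mir19b-1 from 41 to 4, while the more abundant members of their miR-17/92 cluster on the list were not called, with log2 ratios of -0.43 for Mir17, -0.70 for Mir18, -0.88 for Mir20a and -0.22 for Mir92-1. TMM and DESeq2 scaling shifted the ratios by -0.11 on the log2 scale, which left Mir126a at 0.25.

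Markers of some other cell types differed between the libraries by more than Mir126a did, hepatocyte and erythroid markers most of all in the lists used here. Mural-cell miRNAs (Mir143 and Mir145a) summed to 42282 CPM in replicate 1 and 38444 CPM in replicate 2. Of the labelled tissue, the 4 neuroendocrine miRNAs summed to 36299 and 46670 CPM. The 4 linked to adrenocortical function, Mir202 included, summed to 17526 and 40644 CPM, and all 8 were detected. The adrenocortical sum was mostly Mir21a, at 17010 and 39571 CPM, while Mir202 lay at 54.0 and 75.9 CPM. Mir21a (log2 ratio 1.22) and Mir132 (1.15) were called higher, and Mir202 (0.49) and Mir212 (0.22) were not called. The neuroendocrine sum was mostly Mir375 (log2 ratio 0.45), while Mir7b had -0.28, Mir7-1 had 0.03 and Mir7-2 was called lower (-1.03). Hepatocyte Mir122 lay at 1299 and 20602 CPM. The 3 erythroid miRNAs summed to 7248 and 595 CPM, with Mir451a (-3.80) and Mir144 (-2.21) called lower and Mir486 not called (0.64). The 5 leukocyte and platelet miRNAs summed to 1343 and 2189 CPM, and the 6 of striated muscle to 1142 and 2696 CPM, of which 3 were detected and none was at 0 in both libraries. Among the 5, Mir223 was called higher (1.48), while Mir146 (0.81), Mir142 (0.55), Mir150 (-0.02) and Mir155 (-0.76) were not called. Mir206 made up most of the muscle sum. The 3 muscle miRNAs tested, Mir206 (1.23), Mir499 (2.32) and Mir208b (1.31), were all called higher, Mir208b from 14 and 16 reads. The part of these cells in the level of Mir126a was not tested. In whole glands, a difference in the number of endothelial cells and one in miRNA per cell cannot be told apart.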

How the data were processed

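Small RNA libraries of adrenal glands, taken as those of 2 mice, were analysed from read counts per miRNA gene that the authors deposited. There was 1 table per library, made on mm10 with annotation M21 per the deposited lists of files. Which aligner was used is not given in the sources used here. The tables had 3 count columns and 4 summary rows, which were left out of library totals. Sense-strand totals were 3961630 and 1686822 of 11770895 and 6557080 reads, and reads aligned to more than 1 locus (27.0% and 25.7%) were given to no gene. Symbols and hosts came from GENCODE M21, and sequences from RefSeq.

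Levels were CPM of sense-strand counts. The exact binomial comparison used CPM + 0.5 for its log2 ratios. It was checked on simulated counts with counting error only, so that check does not cover variation between animals. With 1 group, the p-values of the comparison cover only counting error between these libraries. Alternatives were edgeR 4.0.16 TMM and DESeq2 1.42.0 size factors, all reads as denominator, each count column, CPM + 5, other count minimums and leaving out each library. Folds used ViennaRNA 2.7.2; other work used Python 3.11.15, scipy 1.17.1 and R 4.3.3. The named genes were both members, the 3 neighbours in rank on each side, the 3 most alike at 10000 CPM or more, the 6 antisense pairs with most counts, the 3 highest genes by sense counts and by opposite-strand share, the 6 highest vascular genes and those called. Members and lists were chosen with earlier results of these data known.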

Additional observations from a re-analysis of the deposited data

How the results depend on the processing

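Of 42 alternatives over the main results, 33 left the value within the SD, within 1.5 times the count or on the same side of the threshold, 8 moved it and 1 turned its direction. A mean of 2 libraries always stays within its SD when 1 is left out, so the alternatives that do this are uninformative. The either-strand column gave mean levels of 1.68 CPM for Mir126a and 0 CPM for Mir126b, and put Mir126a at rank 410 by mean. Scaled to all reads, Mir126a was at 21702 and Mir126b at 1.55 per 1000000 reads, and the log2 ratio of Mir126a turned from 0.35 to -0.033. Rank by sense counts was 1 without replicate 1 and 3 without replicate 2. With at least 1000 sense counts the opposite-strand share of genes without an antisense miRNA gene was 0.00294%, most of it from Mir203 with 60 and 44 reads. Genes called at any size of log2 ratio numbered 251, against 74. The minor-strand share of pairs had a median of 0% and was not recomputed. Mir126b rested on 15 and 12 reads, which limits every statement about it.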
